A study of Mus musculus with 14 samples.

Results

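The interferon response and MHC genes were the array probes whose annotation gives a single gene symbol that begins with Ifi, Isg, Oas, Gbp, Irf, H2-, B2m, or with Stat, Tap or Mx and a digit. Irf4 was left out by the rule. They came to 33 of the 7680 probes, each for a different gene: 15 effectors, 12 regulators (7 Irf and 5 Stat factors), 5 genes of MHC class I, and H2-Ke6. Roles were set by gene symbol, so the effectors, named for induction by interferon, also hold the bone-restricted Ifitm5. H2-Ke6, currently also named Hsd17b8, encodes a steroid dehydrogenase and takes its H2 symbol from its place in the MHC region. No Tap gene and no MHC class II gene was among them. All 33 had a value in every line, and 32 had a value on every array. Stat3 was empty on 1 of the 2 myeloma arrays.

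The study hybridised total RNA of 11 mouse cell lines to 14 two-colour spotted arrays, to ask which genes single lines contribute to a commercial RNA pool. The Cy5 channel held the line, and Cy3 held this pool, the Stratagene mouse reference, which is made from mouse cell lines. Pairs of arrays exist for mammary tumor, fibroblast and myeloma, and a single array for macrophage, T-cell lymphoma, embryo fibroblast, myoblast, skin, liver, kidney and testis. No line carried a treatment or a genotype in its labels, and the labels give neither strain or line names nor culture conditions. Each value is a log2 ratio of line over pool, so that 0 means the level of the pool and 1 means 2-fold over it. Base and direction are not stated in the labels and were judged from the values, and every fold below rests on base 2. Titles in the labels speak of cell lines, and a short annotation beside them speaks of primary tissue. Nothing says whether paired arrays hold separate cultures, so the p-values rest on a spread between arrays that may be purely technical. By the image numbers in the labels, the arrays fall into runs. The mammary tumor arrays lie in different runs, as do the fibroblast arrays, and the myeloma arrays share a run. In mammary tumor and fibroblast, the spread between arrays thus cannot be told apart from the run. For a line with 1 array, n = 1 applies to its value throughout. In bulk RNA, fewer cells with a transcript and less transcript per cell cannot be told apart.

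Type I interferons signal through their receptor and Janus kinases to a complex that holds Stat2 and Irf9 and binds the interferon-stimulated response element (ISRE) in the promoters of effector genes. Interferon gamma acts at gamma-activated sites (GAS). Effectors such as the Ifit, Oas, Isg and Gbp proteins act against viral RNA, viral proteins and intracellular microbes, and several are kept at a basal level in macrophages by low constitutive interferon. MHC class I heavy chains pair with B2m to present peptides to CD8+ T cells, and interferon raises both.

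Lists of cell type markers were checked in every line. Of the macrophage markers 7 of 8 measured were above the pool in the macrophage line, as were 6 of 6 T cell markers in the T-cell lymphoma line, 7 of 7 B and plasma cell markers in the myeloma line and 7 of 7 muscle markers in the myoblast line. Markers did not set apart the other 7 lines. The fibroblast line had 2 of 6 fibroblast markers above the pool and the embryo fibroblast line 1 of 6, where the testis line had 4. The mammary tumor line had 1 of 7 epithelial markers above the pool, where the myeloma line had 4, with Epcam, Cldn7 and Spint2 at 2.37, 2.30 and 2.06. The liver line had 3 of 6 liver markers above the pool, where the myeloma line had 6, and the kidney line 3 of 5 kidney markers, where the testis line had 4. The testis line had 2 of 6 testis somatic markers above the pool, and the skin line 2 of 4 keratinocyte and 2 of 4 melanocyte markers. The median over all probes lay between -0.155 and 0.124 on 12 arrays and at -0.51 on the embryo fibroblast and -0.41 on the kidney array. Between the 2 arrays of a line the members differed with an SD of 0.43 in mammary tumor, 0.715 in fibroblast and 0.82 in myeloma, against 0.55, 0.99 and 0.78 over all tested probes.

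The members had their highest median log2 ratio in the macrophage line, at 0.36, with 21 of 33 above 0. There 7 of the 33 passed the test against the mean of the other 10 lines, each weighted alike. All were higher. They are 21.2% of the members, where 4.07% of all 7423 tested probes passed in either direction and 1.94% were higher. In the fibroblast line 2 members were higher and 1 lower, together 9.09%, against a background of 1.23% (0.835% higher and 0.391% lower). In the myeloma line 4 were higher and 1 lower, together 15.2%, against 6.7% (3.29% higher and 3.41% lower). The T-cell lymphoma line had 1 lower member, which is 3.03% against a background of 4.58% (2.36% lower), and the embryo fibroblast line had 1 lower member, which is 3.03% against 2.21% (1.79% lower). These last shares lie near the background. The test was limma on the log2 ratios of all 14 arrays, with p-values adjusted by Benjamini-Hochberg over all tested probes within a line, and a probe was called at an adjusted p under 0.05.

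**Figure D1:**
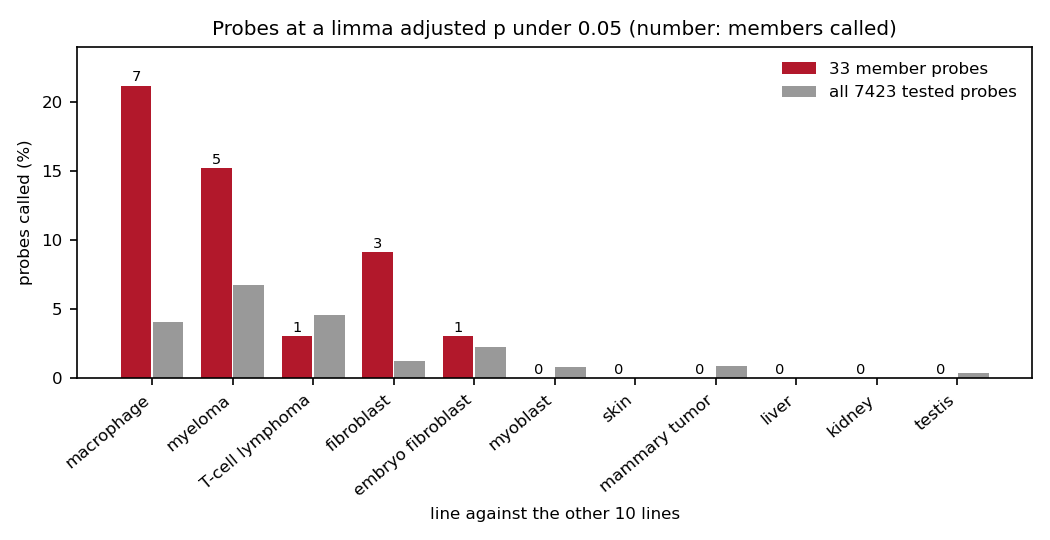
Share of probes called (y axis, percent) in each line against the other 10 lines (x axis). Red bars are the 33 members with the number called above each bar, and grey bars are all 7423 tested probes. The members exceed the grey bar in the macrophage (21.2% against 4.07%), myeloma (15.2% against 6.7%) and fibroblast lines (9.09% against 1.23%) and lie close to it in the T-cell lymphoma and embryo fibroblast lines.

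No member was called in the mammary tumor, liver, testis, myoblast, skin or kidney line under limma, where 0.862%, 0.0135%, 0.35%, 0.795%, 0% and 0.0135% of all probes were called. At an unadjusted p under 0.05 the members numbered 5 in mammary tumor (15.2%, against 14.5% of all probes), 1 in liver (3.03%, against 8.19%), 6 in testis (18.2%, against 11.9%), 7 in myoblast (21.2%, against 14.5%), 5 in skin (15.2%, against 8.11%) and 10 in kidney (30.3%, against 17.4%). The median member varied more between lines than the median probe. The median range over the 11 line means was 2.83 for the members, against 2.04 for all tested probes, and it was 3.15 for the effectors, 3.18 for MHC class I and 2.65 for the regulators.

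**Figure D2:**
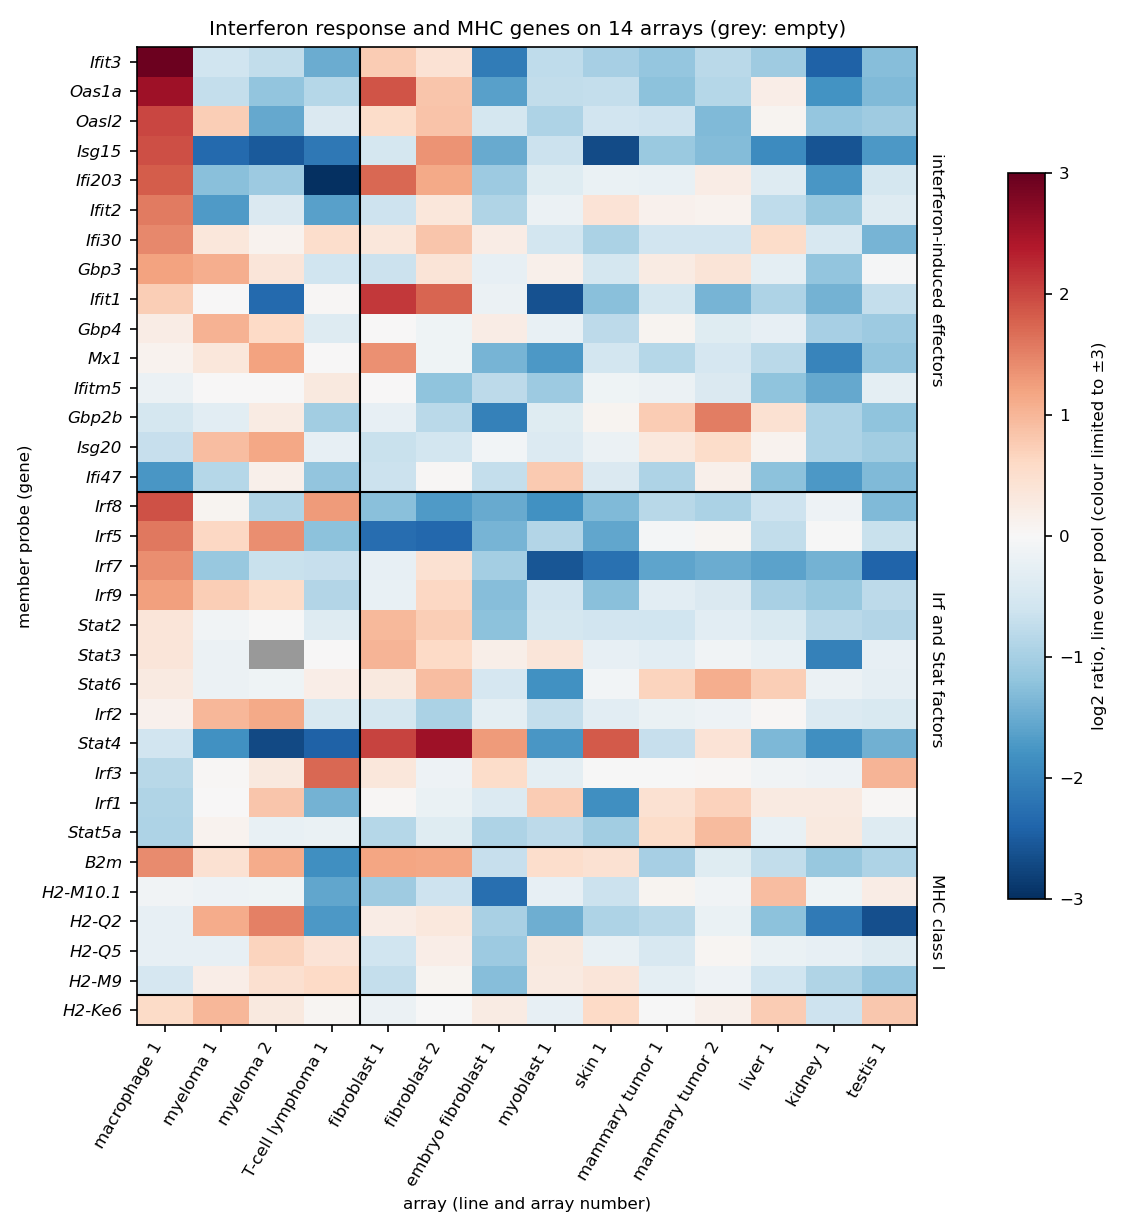
Log2 ratio of line over pool (colour, limited to 3 in either direction) for the 33 members (rows, by role and then by the macrophage value) on the 14 arrays (columns, blood-cell lines left of the vertical line). The macrophage column is red over most of the effectors, the kidney and testis columns are blue over all 15, and the 2 fibroblast arrays are red for several of the same genes. The grey field is the empty Stat3 value.

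The median effector stood above the pool in the macrophage and fibroblast lines and below it in the other 9. Their median was 1.20 in the macrophage line, with 11 of 15 above 0, and 0.41 in the fibroblast line, with 8 of 15 above 0. In the other 9 lines the median lay between -0.36 in myeloma and -1.42 in kidney, and none of the 15 was above 0 in kidney or testis. The median difference of the effectors from the other 10 lines was 1.47 in the macrophage line, against 0.05 over all tested probes, and 0.68 in the fibroblast line, against -0.01 over all tested probes. In the kidney line it was -1.04, against -0.27 over all probes. After centring each array on its median it was 1.41 for macrophage, 0.65 for fibroblast and -0.72 for kidney. In 3 lines the sign depended on the scaling: it was -0.26 as deposited and 0.18 after centring in embryo fibroblast, 0.12 and -0.04 in mammary tumor, and -0.02 as deposited and 0.04 after quantile normalization in myoblast.

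**Figure D3:**
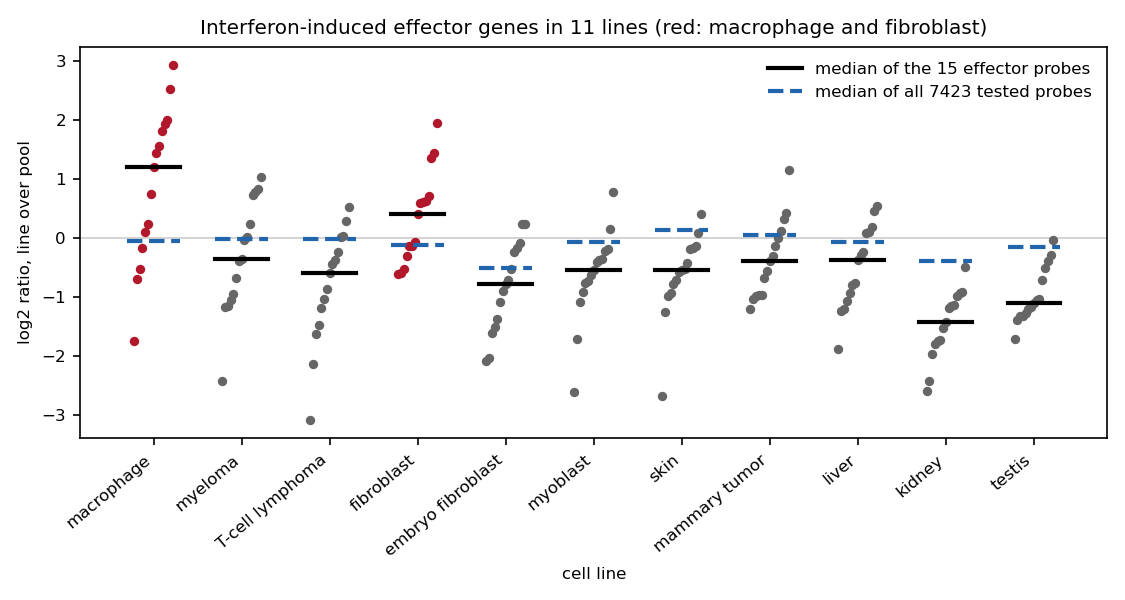
Log2 ratio of line over pool (y axis) of the 15 effector probes in each of the 11 lines (x axis), each point being 1 probe as the mean of the line's arrays. Black bars are the median of the effectors and dashed blue bars the median of all 7423 tested probes. The black bar lies above the blue one in the macrophage line (1.20) and the fibroblast line (0.41) and below it in the other 9 lines.

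The 4 promoters printed here belong to the 3 effectors with the largest differences and to B2m, and are printed because matches to the ISRE and GAS cores lie in them. They are the 250 bases upstream of a transcript start in RefSeq (GRCm38.p6), written 5′ to 3′ along the gene, with capitals for each match on either strand to the ISRE core (2 copies of GAAA with any 2 bases between them) or the GAS core (TTCNNNGAA). Overlapping matches were each counted. Windows were found for 30 of the 33 genes. RefSeq also lists transcripts that begin further upstream, so that the Ifit3 window lies inside the annotated gene span and the last 19 bases of the Oas1a window do too.
Ifit3, chr19:34583279-34583528 (plus strand): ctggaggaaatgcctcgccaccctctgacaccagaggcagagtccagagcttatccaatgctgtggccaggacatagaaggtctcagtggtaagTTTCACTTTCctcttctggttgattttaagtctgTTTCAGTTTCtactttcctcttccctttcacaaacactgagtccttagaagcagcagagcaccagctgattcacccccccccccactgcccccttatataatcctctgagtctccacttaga
Isg15, chr4:156200819-156201068 (minus strand): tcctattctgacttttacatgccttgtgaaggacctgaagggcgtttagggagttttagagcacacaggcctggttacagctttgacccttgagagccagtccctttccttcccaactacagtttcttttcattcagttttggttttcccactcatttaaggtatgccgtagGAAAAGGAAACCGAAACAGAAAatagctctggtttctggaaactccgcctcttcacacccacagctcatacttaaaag
Oas1a, chr5:120907526-120907775 (minus strand): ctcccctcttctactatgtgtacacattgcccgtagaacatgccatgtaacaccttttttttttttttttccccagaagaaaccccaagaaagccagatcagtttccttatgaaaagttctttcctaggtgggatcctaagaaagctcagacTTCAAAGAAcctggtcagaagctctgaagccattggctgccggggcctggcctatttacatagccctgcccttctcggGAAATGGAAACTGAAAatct
B2m, chr2:122147437-122147686 (plus strand): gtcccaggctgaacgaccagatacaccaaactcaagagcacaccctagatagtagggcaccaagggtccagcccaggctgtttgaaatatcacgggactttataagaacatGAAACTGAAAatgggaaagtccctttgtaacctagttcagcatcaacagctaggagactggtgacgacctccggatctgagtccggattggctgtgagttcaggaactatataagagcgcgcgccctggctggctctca
The Ifit3 window held 2 ISRE core matches, starting 156 and 122 bases before the start site. Isg15 held 3 overlapping matches from 78, 72 and 66 bases before it, and Oas1a held 2 overlapping ones from 20 and 14 bases before it and a GAS core from 98 bases before it. The B2m window held 1 match, from 139 bases before the start site. An ISRE core was found upstream of 11 of the 30 genes (36.7%), against 3.46% of the 27025 genes with such a window. It was found for 7 of 13 effectors (53.8%), 3 of 12 regulators and 1 of 4 MHC class I genes. A GAS core was found for 6 of the 30 (20.0%), against 8.13% of all genes. A match is a description of letters and not a measured binding site, genes with more than 1 annotated start had more than 1 window, and 25 of the 41 windows of the members reached into the span of their own gene.

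The effector that differed most was Ifit3, which encodes a tetratricopeptide repeat protein of the Ifit family. Its log2 ratio was 2.94 on the macrophage array, while the other 10 lines ranged from -2.42 in kidney through a median of -1.03 to 0.60 in the fibroblast line. The macrophage value thus stood apart from every other array, and the nearest were fibroblast arrays 1 and 2 at 0.77 and 0.44. The difference was 4.05 ± 0.36 (SE), or 16.6-fold, with an adjusted p of 0.00761. Isg15, a ubiquitin-like modifier of proteins, was at 1.93 in the macrophage line, and the other lines ranged from -2.67 in skin through a median of -1.80 to 0.41 in the fibroblast line. Its 2 fibroblast arrays were far apart, at -0.54 and 1.36, the widest gap of any member between the arrays of that line. The difference in the macrophage line was 3.57 ± 0.63, or 11.9-fold (adjusted p 0.0324). Oas1a, a synthetase of the oligoadenylates that switch on RNase L, was at 2.53 in the macrophage line, against -1.80 in kidney, a median of -0.91 and 1.36 in the fibroblast line among the others. No other line reached the macrophage level, and the difference was 3.28 ± 0.47, or 9.73-fold (adjusted p 0.0190). Isg15 was not called without either mammary tumor or either myeloma array, with differences from 3.56 to 3.58, nor under quantile normalization (3.31).

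Ifi203 belongs to the interferon-inducible HIN proteins, several of which bind DNA in the nucleus or cytosol, and it was called in 3 lines. Its log2 ratio was 1.81 in the macrophage line, 1.72 and 1.15 on fibroblast arrays 1 and 2, and -3.09 in the T-cell lymphoma line. The remaining lines lay between -1.75 in kidney and -0.01 in mammary tumor, so that macrophage and fibroblast lay next to each other at the top and T-cell lymphoma stood alone at the bottom. The differences from the other 10 lines were 2.52 ± 0.39 in macrophage (adjusted p 0.0216), 2.11 ± 0.29 in fibroblast (adjusted p 0.0293) and -2.87 ± 0.39 in T-cell lymphoma (adjusted p 0.0170). The macrophage and fibroblast comparisons each hold the other line among their 10 references. The Ifi203 family has several close copies, and which of them the probe reads was not tested. The macrophage call was lost without either mammary tumor array (2.50 and 2.54) and under quantile normalization (2.16), which also ended the T-cell lymphoma call (-2.26). The fibroblast call was lost whichever of the 6 arrays of the repeated lines was left out (1.82 to 2.39).

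Isg20, an exonuclease that degrades single-stranded RNA, went with a different line. It was at 0.92 and 1.16 on myeloma arrays 1 and 2, while the other lines ranged from -1.04 in testis through a median of -0.33 to 0.42 in mammary tumor. Both myeloma arrays were above every other array, the macrophage line was at -0.70, and the difference was 1.40 ± 0.25, or 2.64-fold (adjusted p 0.0230). It was not called without either mammary tumor or either myeloma array (1.28 to 1.52), under quantile normalization (1.28), or in a fit within the run of image numbers that its labels give (1.58). Mx1, a GTPase that blocks influenza virus and is annotated as a transcribed pseudogene in the RefSeq assembly of mouse strain C57BL/6J, was not called in any line. It was at 0.34 and 1.21 in myeloma, 1.37 and -0.12 in fibroblast, 0.10 in macrophage and 0.02 in T-cell lymphoma, and between -1.98 and -0.51 on the arrays of the other lines. Ifitm5, a bone-restricted relative of the interferon-induced membrane proteins, had the smallest range of the effectors, from -1.53 in kidney to 0.28 in T-cell lymphoma.

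The other 8 effectors were not called in any line by the fit to the deposited values without a block. With the run of image numbers as a random block, Ifi30 was called in macrophage (1.51). Quantile normalization called Ifit1 in fibroblast (2.95) and Gbp2b in mammary tumor (1.75). With the array number as a replicate block, 6 members were called in myeloma, 18.2% against 15.4% of all probes, and the one added was Gbp4 (1.31). Oasl2, a relative of the Oas synthetases, Ifit2, Gbp3, a guanylate-binding GTPase, and Ifi30, a thiol reductase of lysosomal antigen processing, were each highest in the macrophage line, at 2.00, 1.56, 1.20 and 1.44. Ifit1, which binds viral RNA ends, was highest in the fibroblast line, with 2.13 and 1.76 on arrays 1 and 2, and its 2 myeloma arrays were 0.02 and -2.34. That gap of 2.36 was the widest of any member in the myeloma line. Gbp2b was highest in mammary tumor (1.15), Gbp4 in myeloma (0.82) and Ifi47, an immunity-related GTPase, in myoblast (0.78). Ifi47 was lowest in the macrophage line, at -1.76, so that the effectors did not all lie high there.

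Several limits bear on the 4 effectors called in the macrophage line. Without either mammary tumor array 3 of the 7 members stayed called (Ifit3, Oas1a and Irf7), and in a fit within the macrophage line's own run of image numbers, with 4 other lines, none did (adjusted p 0.0518 for Ifit3, with a difference of 3.58). In that run only the myeloma line had a pair of arrays, so the spread of that fit came from this pair alone. With the replicate block 11 members were called, 33.3% against 9.38% of all probes, adding B2m (1.78), Ifit2 (2.24), Irf9 (1.91) and Ifi30 (1.64). Beside these values, all 6 pan-leukocyte markers measured were above the pool in the macrophage line (median 2.05). In T-cell lymphoma 5 of 6 were (median 1.47) and in myeloma 3 of 6 (median -0.67). The effector medians of those lines were -0.59 and -0.36. In the fibroblast line 0 of 8 macrophage markers were above the pool (from -4.01 to -0.47) and 1 of 6 pan-leukocyte markers was. In the fibroblast line the replicate block gave 6 called members, 18.2% against 2.6% of all probes, adding Oas1a (2.14), Ifit1 (3.27) and Ifit3 (1.499). The run of image numbers as a random block gave 10, which are 30.3% against 3.06% of all probes. Without either fibroblast array, or without myeloma array 2, 0 members were called in the fibroblast line, and 1 without either mammary tumor array, which was Stat4.

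The regulators called were Irf2, Irf5, Irf7, Irf8 and Stat4. The share of all probes called in at least 1 line is not given, so their number is not read as a result. In the macrophage line Irf7, Irf8 and Irf5 rose, in the myeloma line Irf5 and Irf2 rose and Stat4 fell, and in the fibroblast line Stat4 rose and Irf5 fell. Irf7 drives the late wave of type I interferon and is itself induced by interferon. It was at 1.39 in the macrophage line, while the other lines ranged from -2.56 in myoblast through a median of -1.48 to 0.10 in the fibroblast line. The macrophage value lay above every other array, and the difference was 2.82 ± 0.41, or 7.05-fold (adjusted p 0.0190). Irf8, a factor needed for the development of monocytes, dendritic cells and B cells, was at 1.92 in the macrophage line, against -1.83 in myoblast, a median of -1.10 and 1.27 in T-cell lymphoma among the others. Macrophage and T-cell lymphoma were the only lines with an Irf8 line mean above 0, and the macrophage difference was 2.74 ± 0.45, or 6.68-fold (adjusted p 0.0255). Without either mammary tumor array Irf8 was not called there, at 2.75 and 2.73.

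Irf5, which acts downstream of Toll-like receptors on inflammatory cytokine genes, was called in 3 lines. It was at 1.59 in the macrophage line, at 0.63 and 1.40 on myeloma arrays 1 and 2, and at -2.27 and -2.37 on fibroblast arrays 1 and 2. The other 8 lines lay between -1.56 in skin and 0.00 in mammary tumor, so that macrophage and myeloma were above them and fibroblast below. The differences from the other 10 lines were 2.37 ± 0.39 in macrophage (adjusted p 0.0274), 1.73 ± 0.29 in myeloma (adjusted p 0.0179) and -1.93 ± 0.29 in fibroblast (adjusted p 0.0399). All 3 calls were lost without either mammary tumor array, the myeloma one also without myeloma array 2 (1.35), and the fibroblast one also without either fibroblast array (-1.98 and -1.89) or myeloma array 2 (-1.89). Quantile normalization ended the macrophage call (2.10), and a fit within the run of image numbers the myeloma one (1.56). Irf2, which binds the same elements as Irf1 and can repress them, was at 1.003 and 1.144 in the myeloma line, and the others ranged from -0.74 in fibroblast through a median of -0.37 to 0.13 in macrophage. Both myeloma arrays were above every other array, with a difference of 1.41 ± 0.26, or 2.66-fold (adjusted p 0.0241). It was not called without either mammary tumor or either myeloma array (1.34 to 1.48), nor within the run of image numbers (1.38). Irf1 itself, an early activator of interferon response and MHC class I genes, was not called. It was lowest in skin, at -1.84, followed by T-cell lymphoma at -1.41 and macrophage at -0.91, and highest in the myoblast line at 0.76, with 0.01 and 0.83 on the myeloma arrays.

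Stat4 carries interleukin and type I interferon signals in T cells and natural killer cells, and had the widest range of the regulators. It was at 2.02 and 2.55 on fibroblast arrays 1 and 2, while the other lines ranged from -2.42 in T-cell lymphoma through a median of -1.39 to 1.84 in skin. The embryo fibroblast line came next, at 1.27, and all 3 blood-cell lines were below 0. The fibroblast difference was 3.15 ± 0.40, or 8.88-fold (adjusted p 0.0236), and it was not called without either fibroblast array (3.41 and 2.89) or myeloma array 2 (3.11). In the myeloma line Stat4 was at -1.82 and -2.71, and its difference was -1.85 ± 0.40 (adjusted p 0.0422), not called without either mammary tumor or either myeloma array (-2.29 to -1.41), under quantile normalization (-1.66) or within the run of image numbers (-2.06). The skin line's difference was 2.66 ± 0.54 and was not called (adjusted p 0.326). Stat5a, a mediator of prolactin and cytokine signals, had the smallest range of the regulators, from -1.03 in skin to 0.75 in mammary tumor. Its arrays there were 0.55 and 0.95, and it was not called in any line.

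The 5 other regulators were not called in any line by the fit to the deposited values without a block. With the run of image numbers as a random block, Stat2 was called in fibroblast (1.36) and Irf9 in macrophage (1.68). That fit called 3.06% of all probes in fibroblast, and its share in macrophage is not given. Irf9 and Stat2, which act in the same complex at the ISRE, were highest in different lines, Irf9 in macrophage (1.24) and Stat2 in fibroblast (0.86). Irf3, which is activated by phosphorylation when viral nucleic acid is sensed, was highest in T-cell lymphoma (1.73) and lowest in macrophage (-0.84). Stat3 was lowest in kidney (-2.03), and Stat6, which carries interleukin signals in alternatively activated macrophages and T cells, was lowest in myoblast (-1.82). With the replicate block, Irf9 was called in macrophage (1.91), Stat3 in kidney (-2.10), Stat6 in myoblast (-1.92) and Irf3 in T-cell lymphoma (1.67). In these lines that block called 33.3%, 6.06%, 9.09% and 12.1% of the members, against 9.38%, 4.67%, 6.2% and 12.9% of all probes. Outside macrophage these shares lie near the background, and the calls are not read as a result about the regulators.

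**Figure D4:**
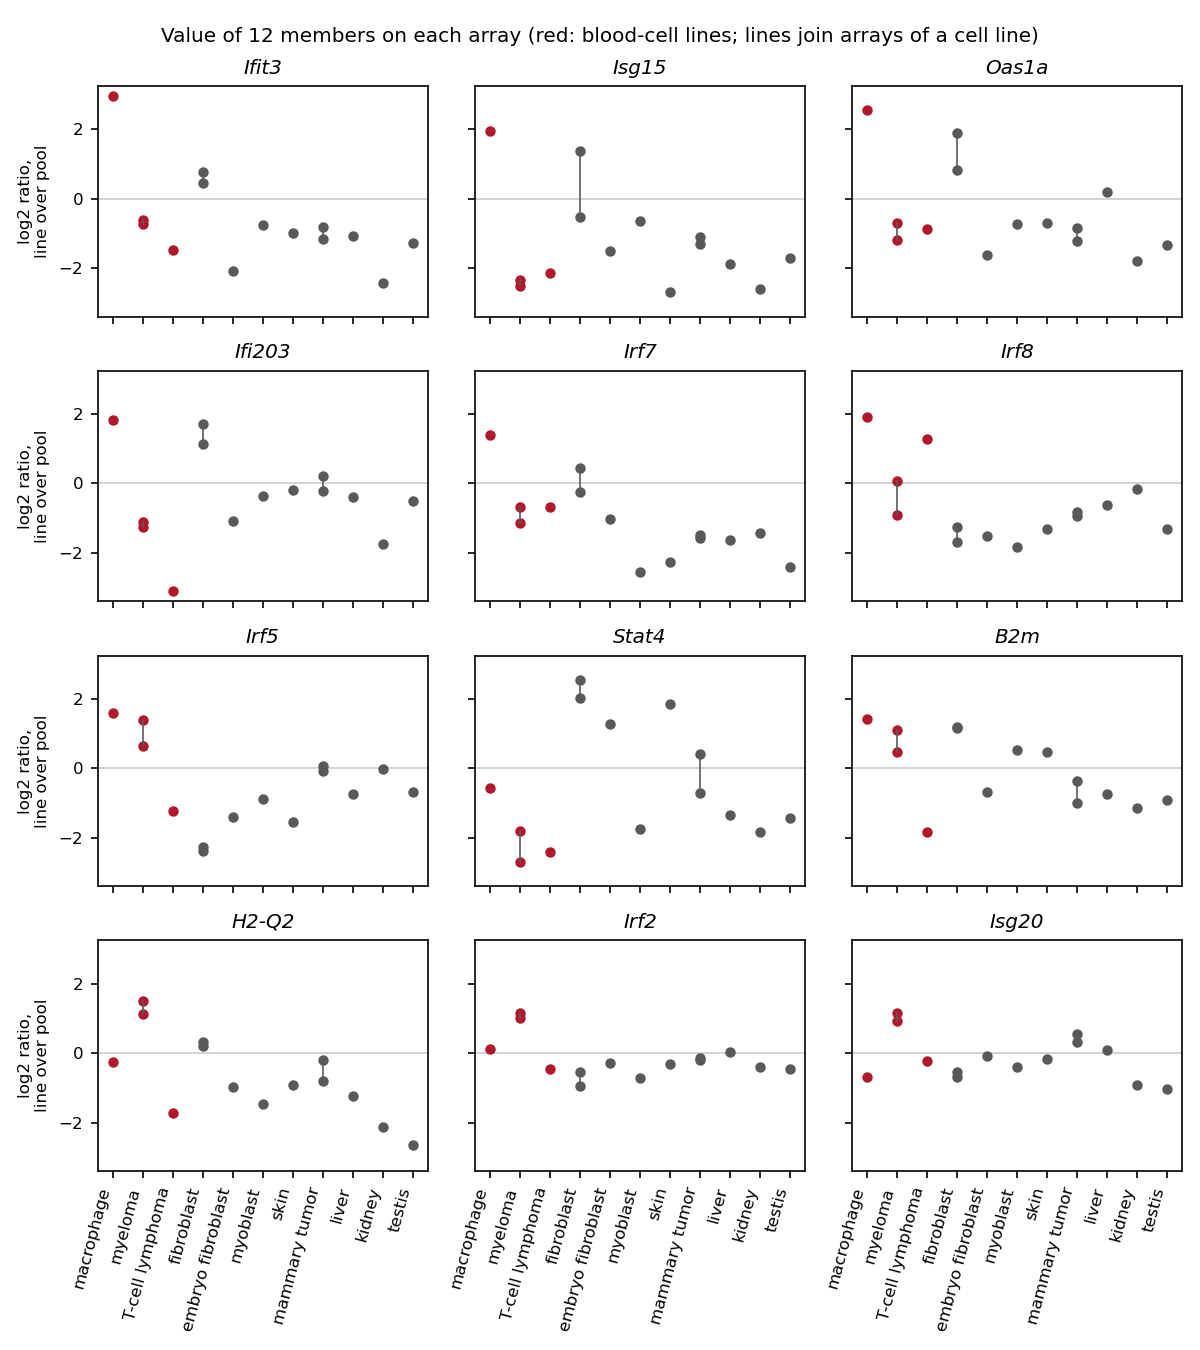
Log2 ratio of line over pool (y axis) of 12 members on each of the 14 arrays, by line (x axis). Red points are the macrophage, myeloma and T-cell lymphoma lines, grey points the other 8 lines, and a thin line joins the arrays of a line with 2. The macrophage point is highest for Ifit3 (2.94), Isg15, Oas1a, Irf7 and Irf8, the fibroblast points for Stat4, and the myeloma points for H2-Q2, Irf2 and Isg20.

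Among the MHC class I genes the myeloma line had the highest H2-Q2 and the T-cell lymphoma line the lowest B2m. H2-Q2 encodes a class I heavy chain of the Q region. It was at 1.11 and 1.51 on myeloma arrays 1 and 2, while the other lines ranged from -2.65 in testis through a median of -1.11 to 0.27 in fibroblast. Both myeloma arrays were above every other array, and the difference was 2.47 ± 0.28, or 5.52-fold (adjusted p 0.00510). The macrophage line did not share it, at -0.25. The RefSeq table lists H2-D1 and H2-K1 among the synonyms of H2-Q2, and class I heavy chains are near-identical over long stretches, so that the probe may read several of them, which was not tested. Without myeloma array 2 the H2-Q2 difference was 2.27 with an adjusted p of 0.0852.

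B2m, the light chain that every class I molecule needs to reach the cell surface, was not called in any line by the fit to the deposited values without a block. It was at 1.41 in macrophage, 1.19 and 1.15 in fibroblast, 0.46 and 1.11 in myeloma, 0.53 in myoblast and 0.46 in skin, and between -1.14 in kidney and -0.37 on mammary tumor array 2 in 5 further lines. The T-cell lymphoma line was lowest at -1.83, a difference of -1.85 ± 0.42 (adjusted p 0.0572). With the replicate block B2m was called there, at -1.79, and 4 members in all were called in T-cell lymphoma (12.1%, against 12.9% of all probes), with Ifi203 (-2.86), Irf3 (1.67) and Irf8 (1.95). The macrophage difference was 1.72 ± 0.42 (adjusted p 0.0801), and the fibroblast difference was 1.45 ± 0.31 (adjusted p 0.0896). With the run of image numbers as a random block, B2m (1.47) and H2-Q2 (1.34) were called in fibroblast. They were among the 10 members called there by that fit, 30.3% against 3.06% of all probes.

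H2-M10.1, a class I gene of the M region known for its expression in the vomeronasal organ, was at -2.26 in the embryo fibroblast line, while the other lines ranged from -1.57 in T-cell lymphoma through a median of -0.14 to 0.92 in liver. The embryo fibroblast array was the lowest, with a difference of -1.998 ± 0.354 (adjusted p 0.0466). The array sat low as a whole, with a median difference of -0.42 over all tested probes, and after centring the arrays the H2-M10.1 difference was -1.56 (adjusted p 0.0879). It was also not called without either mammary tumor or either myeloma array, with differences from -2.01 to -1.99. With the replicate block 3 members fell in that line (9.09%, against 12.6% of all probes called), H2-M10.1 (-1.98), Gbp2b (-1.70) and Ifit3 (-1.48). H2-M9 ranged from -1.28 in embryo fibroblast to 0.60 in T-cell lymphoma. H2-Q5, which RefSeq annotates as a transcribed pseudogene, had the smallest range of the class, from -1.08 to 0.40 in the same lines. H2-Ke6, the steroid dehydrogenase gene, had the smallest range of all 33, from -0.62 in kidney to 0.81 in testis, and was not called.

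The remaining lines had members that stood at the low or high end without passing the test. The kidney line held the lowest line mean of 8 of the 33 members (24.2%, against 16.7% of all tested probes), the embryo fibroblast line that of 6 (18.2%, against 24.4%), and the macrophage line the highest of 13 (39.4%, against 11.7%). In kidney the largest differences were in Stat3 (-2.09 ± 0.38, adjusted p 0.103) and Ifit3 (-1.84 ± 0.36, adjusted p 0.0968), and the replicate block called both, Ifit3 at -1.85, which are 6.06% of the members against 4.67% of all probes. In testis H2-Q2 (-1.88 ± 0.39, adjusted p 0.140) and Ifi30 (-1.49 ± 0.36, adjusted p 0.202) differed most. In myoblast the replicate block called Ifi47 (1.86), Stat6 (-1.92) and Ifit1 (-2.41), which are 9.09% against 6.2% of all probes, where the fit without it called none. In mammary tumor the largest difference was Gbp2b (1.76 ± 0.33, adjusted p 0.0734), which quantile normalization called at 1.75. In skin Stat4 (given above) and Irf1 (-1.79 ± 0.41, adjusted p 0.349) differed most. In liver 1 member was under an unadjusted p of 0.05, H2-M10.1 (1.497 ± 0.354, adjusted p 0.312).

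The 3 blood-cell lines (macrophage, myeloma and T-cell lymphoma) were also set against the other 8 lines, since MHC genes and several interferon regulators are known to be high in leukocytes. With the line as replicate, 1 of the 33 members was called, 3.03% against a background of 3.22% of all probes (0.997% higher), and it was Irf8, which was higher. Its line means were 1.92 in macrophage, -0.41 in myeloma and 1.27 in T-cell lymphoma, and from -1.83 to -0.15 in the other 8 lines. The groups overlapped, since the myeloma line lay below the kidney line. Irf8 averaged 0.92 ± 1.20 in the blood-cell lines (SD, n = 3) and -1.14 ± 0.55 in the others (SD, n = 8), a difference of 2.06 ± 0.47 (limma adjusted p 0.0315). It was not called without the macrophage line (1.57), nor without the T-cell lymphoma (1.89), fibroblast (2.01), testis (2.04) or embryo fibroblast line (2.01), nor under quantile normalization (1.89). For no member did the line means of the 2 groups part without overlap, where they did for 7.8% of all probes. The spread among the blood-cell lines was wide for the effectors. Ifit3 had an SD of 2.35 over them and Isg15 one of 2.44, since both were high in macrophage and low in myeloma and T-cell lymphoma. A fit over the 14 arrays, which takes the spread from paired arrays and not from lines, called 8 members, which are 24.2% against 12.8% of all probes.

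Genes of the pathway outside the rule were taken from a list of 94 receptors, kinases, sensors, further effectors and antigen processing genes, of which 60 genes were measured by 61 probes. In the macrophage line 11 probes rose and 0 fell, in myeloma 8 rose and 0 fell, in fibroblast 2 rose and 1 fell, in T-cell lymphoma 1 rose and in myoblast 1 fell. Of all tested probes, 4.07% were called in either direction in macrophage, 6.7% in myeloma and 1.23% in fibroblast. In T-cell lymphoma it was 4.58% and in myoblast 0.795%. The single probes called in these last lines are not read as a result. Their median difference was 0.65 in macrophage, 0.52 in myeloma and 0.09 in fibroblast, against 0.05, 0.11 and -0.01 over all probes. The largest was Rtp4, an interferon-induced chaperone of receptor transport, at 3.53 in macrophage, against a mean of -1.22 over the other lines (4.75 ± 0.48, adjusted p 0.00851). Cd74, the invariant chain of MHC class II, was at 1.82 in myeloma, against -2.33 over the others (4.15 ± 0.47, adjusted p 0.00467), and at 1.57 in macrophage, against -2.31 (3.88 ± 0.63, adjusted p 0.0255). MHC class II is known from macrophages and B cells. Psmb8, a subunit of the immunoproteasome, was at 2.61 in macrophage, against -1.31 (3.93 ± 0.46, adjusted p 0.0115), and its second probe gave 2.79 ± 0.52 (adjusted p 0.0386). Both Psmb8 probes also rose in myeloma, by 2.78 (adjusted p 0.00593) and 2.83 (adjusted p 0.00869). Rtp4 also rose in fibroblast, by 2.68 (adjusted p 0.0275). Trim25, a ubiquitin ligase in the sensing of viral RNA, was at -3.29 in myoblast, against -0.25 (-3.04 ± 0.46, adjusted p 0.0470), and rose in macrophage by 2.46 (adjusted p 0.0381). Zbp1, a sensor of left-handed nucleic acids, was at 1.87 in myeloma, against -0.83 (2.70 ± 0.31, adjusted p 0.00467), and rose in macrophage by 2.02 (adjusted p 0.0498). Ly6e, an interferon-inducible surface protein, was at -4.44 in fibroblast, against -0.70 (-3.74 ± 0.37, adjusted p 0.0161), and at 1.83 in macrophage, against -1.33 (3.15 ± 0.50, adjusted p 0.0233). Ly6e thus lay low in fibroblast and high in macrophage, while the median effector was above the pool in both lines.

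Across the 11 line means the effectors varied together more than the other classes, as a description over lines that share the pool channel. The median pairwise Pearson r was 0.324 among the 15 effectors, with 87 of 105 pairs above 0, and 0.268 after removing the line medians. It was 0.12 among the regulators, 0.176 among the class I genes and 0.076 over all tested probes, and after removing the line medians 0.107, 0.055 and -0.001. Ifit3 and Oas1a had an r of 0.939, Ifit3 and Isg15 0.874, and Oas1a and Oasl2 0.952, the highest among the effector pairs. B2m and H2-Q2 had 0.693 and H2-M9 and H2-Q5 0.828, the last being 0.672 after removing the line medians. Oas1a, Oasl2 and Ifit3 have one shared high value, that of the macrophage line, which weighs on each of these figures.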

How the data were processed

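The values deposited by the authors are log2 ratios. How they corrected background, normalized and filtered spots is not given in the sources. If all lines entered the pool alike, unlogged ratios should average about 1 per probe. That average had a median of 1.003 for log2 line over pool, 1.199 for pool over line, 1.072 for natural logs and 1.87 for log10, which parts log2 from natural logs only weakly. Every array had the line in the same dye. The first mammary tumor array has 3 further letters in its reference label.

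Spots of Gapdh were averaged, and tests ran on the 7423 features that every line measured. Probes were named through the platform annotation and matched to RefSeq (GRCm38.p6), 32 of the 33 members by gene ID and 1 by accession. limma 3.58.1 in R 4.3.3 fitted a term for each line over 14 arrays (lmFit and eBayes, two-sided), and each line was set against the other 10 with equal weights. The fit had 3 residual degrees of freedom, 3.75 added by moderation, and a median residual SD of 0.430, which single arrays were taken to share. Blood-cell lines were compared with the other 8 on line means. The number of arrays limits the precision. Errors after a difference are standard errors. The script was tested on simulated data. Plots used matplotlib 3.10.9 (Python 3.11.15).

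The members, roles and lists were chosen with earlier results of these data known. Values are given for each member called in any comparison, for B2m, Irf1, Isg15, Oas1a and Mx1, and for the members of widest and narrowest range in each role; the others are given by counts, ranges and their extreme lines. Of other pathway genes, the 6 with the largest called differences are named. Members given beyond this rule were chosen after their values were seen.

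The labels number the arrays of a line without saying what a number marks. The differences between array 2 and array 1 correlated at 0.541, 0.33 and 0.379 over 7401 probes between the 3 lines with 2 arrays. The number was therefore taken as a pairing found in the data. The replicate block was chosen from this pattern in the same arrays, so the calls it adds are no independent support. In that fit every line with a single array carries number 1, and the block takes up a residual degree of freedom. The alternatives tried were centring, quantile normalization, the replicate block, the run of image numbers given in the labels as a random block or as a subset, probes on all arrays only, and leaving out arrays or lines.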

Additional observations from a re-analysis of the deposited data

Results flagged for a closer look

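Over the 8 lines outside the blood-cell lines, each of the 33 members was checked for 1 line far from the others (gap to the nearest line over the whole range above 0.526). Chance alone flags about 1 in 20, and 3 of the 33 were flagged. Stat3 was lowest in kidney at -2.03, where the nearest line was at -0.24. Irf1 was lowest in skin at -1.84, where the nearest was at -0.41. Stat2 was highest in fibroblast at 0.86, where the nearest was at -0.45. Kidney and skin had 1 array each, so these values have no replicate check, while both fibroblast arrays were above the other lines for Stat2, at 0.96 and 0.75. The kidney array also had a median over all probes of -0.41. The part of that shift in the Stat3 value was not tested.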

How the results depend on the processing

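No named difference changed sign under any alternative, and of 214 refits of 18 named differences 145 kept their call and 69 lost it. Of 138 counts of called members under an alternative, 96 stayed within 1.5 times the count given, or at 0 where that count was 0. The other 42 moved. Many of the 96 come from lines with no called member, such as liver, skin and testis, which stayed at 0. The 96 thus overstate how steady the counts above 0 were. Centring gave 0 in embryo fibroblast. Quantile normalization gave 4 in macrophage, 5 in fibroblast, 3 in myeloma, 1 in mammary tumor, and 0 in embryo fibroblast, T-cell lymphoma and the blood-cell comparison. The image run as a random block (correlation 0.470) gave 10 in fibroblast. The replicate block gave 11 in macrophage, 6 in fibroblast, 6 in myeloma, 4 in T-cell lymphoma, 3 in embryo fibroblast, 3 in myoblast and 2 in kidney; every call of the fit without the block was kept. Within the image run, macrophage had 0 and myeloma 2 (H2-Q2 and, lower, Isg15 at -2.35; its other 4 calls were lost), and T-cell lymphoma had no residual degrees of freedom and so no test (Ifi203 differed by -2.72 there). The fit over 14 arrays gave 8 in the blood-cell comparison.

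Leaving out 1 array gave 3 to 9 in macrophage, 0 to 3 in fibroblast, 0 to 9 in myeloma, 1 to 4 in T-cell lymphoma and 0 to 1 in embryo fibroblast. The myeloma count was 0 without myeloma array 2, 2 without myeloma array 1, 1 without either mammary tumor array, and 9 and 8 without fibroblast arrays 1 and 2. T-cell lymphoma had 4 and 3 without fibroblast arrays 1 and 2. Leaving out 1 line gave 0 to 1 in the blood-cell comparison. The causes were not tested, and leaving out an array also lowers the residual degrees of freedom. For centring, quantile normalization, the fits within an image run and the fits with an array or line left out, the share over all probes is not given. Those counts therefore do not say whether the members moved more than other probes.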
